A study of Mus musculus with 41 samples.

Results

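The lines 2i-O48 and 2i-O48-TKO, androgenetic haploid embryonic stem cells (AG-haESCs) of the mouse that lack H19-DMR and IG-DMR, were set against the wild-type AG-haESC line 2i-14 in the same 2i/L medium. AG-haESCs are embryonic stem cells with a single chromosome set that comes from a sperm. The libraries were chosen by label: 5 of the 13 RNA-seq libraries, among 41 samples in the series. 2i-O48, with both DMRs deleted, gave 1 library, and 2i-O48-TKO, in which the H19 gene is deleted as well, gave 1 library. 2i-14 gave 3 libraries, at passages 18, 39 and 50 (p18, p39 and p50).

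All 5 libraries carry the strain label C57BL/6. 2i/L combines LIF with inhibitors of MEK and GSK3, and haploid cells were enriched by FACS. The genotype is held by 2 lines that share the O48 name, both made in earlier work, and the control is a single line sampled at 3 passages, so DMR deletion and line of origin cannot be told apart. The labels give no passage for the DMR-deleted lines. p-values therefore measure the spread between these libraries, and not between independently derived lines. The other 8 libraries were used only beside the comparison: the same 3 lines grown for 5 passages in SF/a2i/L (called switched, 1 library each), in which the MEK inhibitor is replaced by a Src inhibitor and the serum of 2i/L is left out, and 5 libraries of the wild-type lines TSa2i-14 and TSa2i-C57 in TSa2i/L.

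A DMR is a differentially methylated region, a stretch of DNA that is methylated on the copy inherited from 1 parent. IG-DMR controls the Dlk1-Dio3 region: where it is unmethylated, as on a maternal copy, the long non-coding RNAs Meg3, Rian and Mirg are transcribed, and where it is methylated, the protein-coding genes Dlk1, Rtl1 and Dio3 can be expressed. H19-DMR acts in the same way between H19, a non-coding RNA of the maternal copy, and Igf2, a growth factor gene of the paternal copy. Deleting both DMRs from a sperm-derived genome is a means of fixing that genome in a paternal-like state at both regions.

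Values are FPKM, the fragments of a gene scaled by transcript length and by the depth of the library, and differences are given as the mean log2(FPKM + 1) of the 2 DMR-deleted libraries minus that of the 3 libraries of 2i-14. Genes with at least 1 FPKM in at least 2 of the 5 libraries were tested, 10164 in all, with limma and Benjamini-Hochberg adjustment. Estimated depths lay between 12900000 and 19900000 fragments over the 13 libraries. The 7 stem cell markers Pou5f1, Sox2, Nanog, Klf4, Esrrb, Tfcp2l1 and Zfp42 were between 13.3 and 467 FPKM in all 5 libraries. The summed level of 15 fibroblast markers was 216.5 FPKM in 2i-14 p39 and 3.06 to 3.87 FPKM in the other 4 libraries (Tagln 42.9 and Col1a1 16.9 FPKM in p39), and the Y-linked gene Eif2s3y was at 3.12 FPKM in 2i-14 p39 and listed at 0 in the others. MicroRNA loci took 23.2% of the summed FPKM in 2i-14 p18 and at most 1.06% in the other 4 libraries. Between 2i-O48 and 2i-O48-TKO 667 genes differed by at least 1 on the log2 scale, against 432 to 747 between passages of 2i-14 and 406 to 1039 across the groups. The lowest of these counts, 406, was between 2i-O48-TKO and 2i-14 p50, so the libraries did not group by genotype as a whole.

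Few genes separated the groups beyond the spread between libraries. Of the 10164 genes tested, 12 were called at an adjusted p of 0.05 (0.118%), of which 8 rose (0.0787%) and 4 fell (0.0394%) in the DMR-deleted lines. At an unadjusted p of 0.05, 589 genes passed (5.79%), 384 of them higher (3.78%) and 205 lower (2.02%). For 1992 genes (19.6%) the 2 DMR-deleted libraries lay outside the range of the 3 libraries of 2i-14, 1205 above it (11.9%) and 787 below it (7.74%). The median log2 difference over all tested genes was 0.034, and 55.7% of the genes had a positive difference. Leaving out 1 library moved the count of called genes to between 2 and 20, and its values are given with the other limits in the closing section.

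The targeted loci are described before the rest of the genome. H19 (chr7:149761434-149764048, minus strand, mm9) was at 0.0571 FPKM in 2i-14 p18, at 0.0248 FPKM in p39, and was listed at 0 in p50 and in both DMR-deleted lines. All 5 values lay under the level that 3 fragments would give, which was 0.0636 to 0.0931 FPKM for this transcript, so the deletion of H19 in 2i-O48-TKO was not detectable from its RNA at this depth. Igf2 (chr7:149836673-149852721) was listed at 0 in 2i-14 p18 and p50 and was at 0.102 FPKM in p39, whereas 2i-O48 had 0.772 FPKM and 2i-O48-TKO 0.0141 FPKM. The DMR-deleted libraries thus lay on opposite sides of 2i-14 p39, and an exact two-sided permutation test gave p = 0.2, where 0.1 is the smallest p that 2 against 3 libraries allow.

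None of the genes beside H19 that could be tested passed the test. Of 16 listed genes of the H19-Igf2 region 15 were in the files, and 3 passed the filter on low values: Ascl2, a transcription factor of the trophoblast, Mrpl23, a mitochondrial ribosomal protein, and Ctsd, the protease cathepsin D. The Ascl2 level was 3.78, 0.959 and 0.849 FPKM in the 3 libraries of 2i-14, in order of passage, and 2.01 and 4.29 FPKM in 2i-O48 and 2i-O48-TKO. These ranges overlap, and the adjusted p was 1.0 for each of the 3 genes. No gene of the region was called by limma, and at an unadjusted p of 0.05 the count was also 0. Within 1 Mb of H19, 14 tested genes had log2 differences from -0.91 to 0.63. The 1 gene among them with an unadjusted p under 0.05 was Phlda2, an imprinted growth regulator of the placenta that lies in the neighbouring Kcnq1ot1 domain, at 26.3, 17.2 and 11.99 FPKM in 2i-14 against 6.77 and 11.7 FPKM in 2i-O48 and 2i-O48-TKO (log2 difference -0.91, adjusted p = 0.82).

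In the Dlk1-Dio3 region the maternally expressed non-coding RNAs were low in both DMR-deleted lines. Meg3 (chr12:110779211-110809936, plus strand, mm9) had 6.69 FPKM in 2i-14 at p18, 3.43 FPKM at p39 and 1.91 FPKM at p50, and 0.132 and 0.164 FPKM in 2i-O48 and 2i-O48-TKO. The groups did not overlap, and the mean of 2i-14 was 27.1 times that of the DMR-deleted lines. The log2 difference of -2.01 (SE 0.39) had an unadjusted p of 0.0011 and an adjusted p of 0.17, so Meg3 was not called, and the exact permutation p was 0.1. Over its 13 alternative settings the adjusted p ran from 0.036 to 0.57, and it passed only in the fit to which the switched libraries were added.

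Rian and Mirg, the RNAs that lie downstream of Meg3 and host small RNAs, followed the same order at lower levels. Mirg (chr12:110973191-110987665) was at 1.13, 0.599 and 0.834 FPKM in the 3 libraries of 2i-14 and at 0.0446 and 0.0471 FPKM in the DMR-deleted lines, which is under the level of 3 fragments in both. Rian (chr12:110842155-110899919) was at 0.564, 0.492 and 0.128 FPKM in 2i-14, at 0.0275 FPKM in 2i-O48, and was listed at 0 in 2i-O48-TKO. Neither gene reached the filter, so neither has an adjusted p, and the exact permutation p was 0.1 for Mirg and 0.2 for Rian. The protein-coding genes of the region were low in both groups: Dlk1, a membrane ligand related to Notch ligands, was at 0.0533 to 0.178 FPKM in 2i-14 and at 0.0224 and 0.0236 FPKM in the DMR-deleted lines, Rtl1 was at most 0.0169 FPKM in any of the 5, and Dio3, the deiodinase that inactivates thyroid hormone, was at 0.0296 to 0.548 FPKM in 2i-14 and at 0.143 and 0.121 FPKM in the DMR-deleted lines. Of 61 genes of the region in the files 48 were listed at 0 in all 5 libraries, and all 48 were microRNA loci, whose short RNAs this assay is not made to capture.

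The 6 tested genes within 1 Mb of Meg3 other than Meg3 itself, which include Yy1, a transcription factor, and Wars, a tRNA synthetase, had log2 differences from -0.47 to 0.19, and the unadjusted p was above 0.05 in all 6. The low level of Meg3 held after the switch. Switched 2i-14 was at 22.7 FPKM, whereas switched 2i-O48 and 2i-O48-TKO were at 0.0427 and 0.0240 FPKM. The wild-type lines in TSa2i/L lay between 0.147 and 1.73 FPKM, so that the lowest of them fell between the values of the DMR-deleted lines in 2i/L. MicroRNA loci took 67.2% of the summed FPKM in switched 2i-14, and the part of this in its Meg3 value was not tested.

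The Meg3 promoter is shown because Meg3 was the most abundant of the 3 non-coding RNAs of the region in 2i-14. The sequence below is from RefSeq on GRCm38.p6, a later build than the mm9 positions above, chr12:109540746-109540995 on the plus strand, the 250 bases before the start. Capitals mark TGACGTCA, the palindromic cAMP response element, which begins 57 bases before the start. The motif, searched on both strands, is in 1.79% of 32851 promoters of 300 bases in the RefSeq table.
Meg3: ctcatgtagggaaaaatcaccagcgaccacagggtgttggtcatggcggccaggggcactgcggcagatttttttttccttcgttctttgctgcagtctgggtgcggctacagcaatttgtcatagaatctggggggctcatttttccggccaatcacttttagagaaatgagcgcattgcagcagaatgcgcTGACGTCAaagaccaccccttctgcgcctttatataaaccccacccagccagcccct

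**Figure D1:**
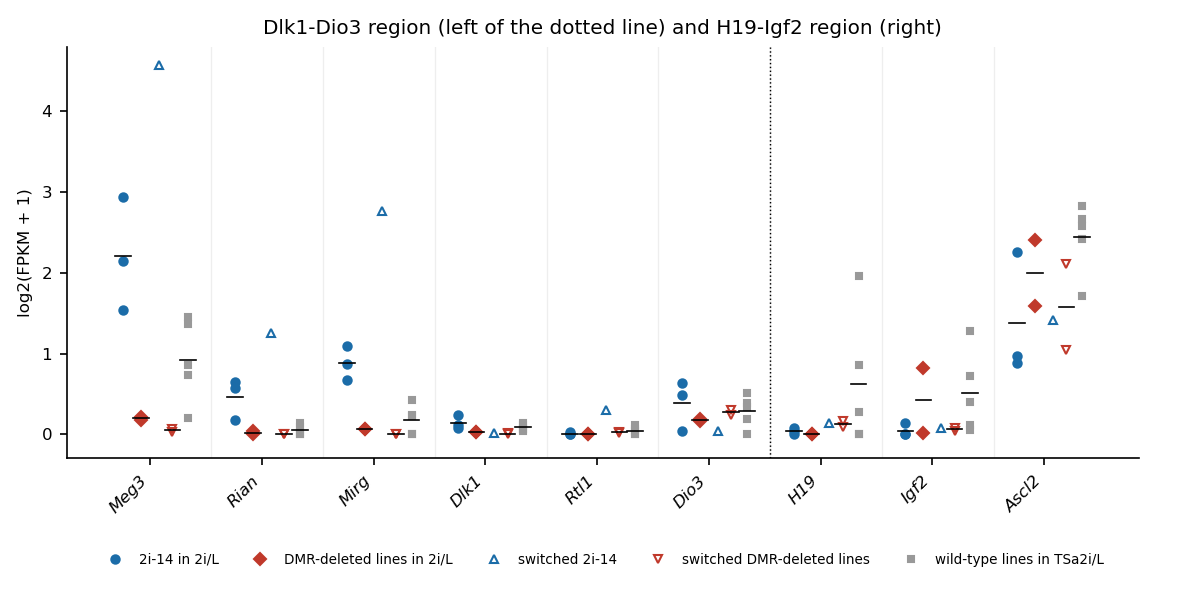
Log2(FPKM + 1) of 6 genes of the Dlk1-Dio3 region (left of the dotted line) and 3 of the H19-Igf2 region (right) in each of the 13 RNA-seq libraries, with 1 symbol per library and a bar at the mean of each group of more than 1 library. The Meg3 values of the 3 libraries of 2i-14 in 2i/L (1.91 to 6.69 FPKM) lie above both DMR-deleted libraries (0.132 and 0.164 FPKM), whereas the H19 values in 2i/L all lie at or close to 0.

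Imprinted genes at other loci differed in single members. Of 22 tested genes with paternal expression outside both regions, 0 were called by limma, and 4 had an unadjusted p under 0.05, all higher (3.78% of all tested genes). Both DMR-deleted libraries lay above 2i-14 for 6 genes and below it for 3 (11.9% and 7.74% of all tested genes). The median log2 difference was 0.021, beside 0.034 for all tested genes. The 4 were Fkbp6, a co-chaperone required in meiosis, Nnat, Slc38a4, an amino acid transporter, and Sfmbt2, a Polycomb protein. The Nnat level was 4.40, 3.69 and 4.90 FPKM in 2i-14 and 15.6 and 10.4 FPKM in 2i-O48 and 2i-O48-TKO, without overlap (log2 difference 1.38, adjusted p = 0.17). The Slc38a4 level was 28.9, 33.5 and 30.3 FPKM in 2i-14 and 58.8 and 49.8 FPKM in the DMR-deleted lines (log2 difference 0.79, adjusted p = 0.38). Both genes were higher in both lines in 2i/L, by amounts that do not pass the adjusted threshold. In the switched cultures Nnat did not separate the lines, at 13.9 FPKM in 2i-14 against 16.4 and 13.8 FPKM, and Slc38a4 was at 16.03 FPKM against 18.7 and 21.1 FPKM. Fkbp6 was at 19.5, 18.2 and 26.2 FPKM in 2i-14 against 81.3 and 63.98 FPKM, without overlap (log2 difference 1.73, adjusted p = 0.084), and after the switch at 9.87 FPKM against 10.1 FPKM for 2i-O48 and 66.6 FPKM for 2i-O48-TKO. The more abundant Snrpn, a splicing protein, had a log2 difference of -0.095, Mcts2 0.012 and Gnas, a signalling G protein, -0.23. Among the genes with maternal expression, the membrane protein Cd81 was at 564, 377 and 577 FPKM against 227 and 461 FPKM, with Commd1 at a log2 difference of 0.068 and Tssc4 at 0.073. Of 16 tested genes with maternal expression 0 were called, 2 had an unadjusted p under 0.05, both lower (2.02% of all tested genes), and the median was -0.039. A list of genes reported to form a network with H19 had 9 tested members and 0 called. At an unadjusted p of 0.05, 1 was higher and 1 lower (3.78% and 2.02% of all tested genes). The median was 0.031, with log2 differences of 0.031 for Mest and -0.24 for Plagl1. Among 12 tested genes of the insulin-like growth factor pathway, the pathway of Igf2, 0 were called, 0 had an unadjusted p under 0.05, and the median was -0.063. Igfbp2, a growth factor binding protein, was the most abundant, at 419, 463 and 629 FPKM against 274 and 702 FPKM, and Igf2bp3 and Igf2bp1, which bind the Igf2 transcript, had log2 differences of 0.17 and -0.19. Igfbp7 stood at 90.9 FPKM in 2i-14 p39 and at 0.567 and 0.450 FPKM in p18 and p50, against 6.35 and 1.03 FPKM. Without 2i-14 p39, the library with the high fibroblast markers, the median was 0.17 for the growth factor pathway. It was 0.011 for the genes with maternal expression and 0.046 for those with paternal expression.

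The most abundant of the 4 genes that fell was Trp53, which encodes the tumour suppressor p53, a transcription factor that answers DNA damage with arrest or death of the cell. Trp53 (chr11:69393861-69405375, plus strand, mm9) had 345.5 FPKM in 2i-14 at p18, 216.9 FPKM at p39 and 180.3 FPKM at p50, and 30.2 and 33.2 FPKM in 2i-O48 and 2i-O48-TKO. The mean of 2i-14 was thus 7.80 times that of the DMR-deleted lines, without overlap. The log2 difference was -2.87 (SE 0.29), with an adjusted p of 0.026. In the switched cultures the order was the same: 118 FPKM in 2i-14 against 13.9 and 11.1 FPKM in 2i-O48 and 2i-O48-TKO. The 5 wild-type libraries in TSa2i/L were between 109.4 and 232 FPKM, so all 4 DMR-deleted libraries lay below all 9 wild-type libraries.

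The difference did not extend to the neighbours of Trp53. The 15 tested genes within 250 kb had log2 differences from -0.52 to 0.59 with a median of -0.015, and 0 of the 15 had an unadjusted p under 0.05. Wrap53, which starts next to Trp53 on the opposite strand and encodes a telomerase cofactor, was at 49.9, 38.5 and 27.6 FPKM in 2i-14 and at 59.6 and 30.3 FPKM in the DMR-deleted lines. Its values overlapped between the groups, and its small difference changed sign when a library was left out. The Trp53 call did not survive every setting: without 2i-O48-TKO the adjusted p was 0.080, without 2i-O48 it was 0.19, without 2i-14 p39 it was 0.064, and with no filter on low values it was 0.26, at log2 differences between -2.60 and -3.07 over all 14 alternatives.

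The promoter of Trp53 is shown for this reason, as the start site of an abundant RNA that fell. The RefSeq sequence on GRCm38.p6 is chr11:69580209-69580388, plus strand, from 150 bases before the start to 30 bases after it, and capitals mark CACGTG, the palindromic E-box bound by factors such as Myc, which begins 11 bases after the start. This motif, searched on both strands, is in 7.15% of the promoters in the table and in 1 of the 11 called genes with an entry there, Trp53 itself.
Trp53: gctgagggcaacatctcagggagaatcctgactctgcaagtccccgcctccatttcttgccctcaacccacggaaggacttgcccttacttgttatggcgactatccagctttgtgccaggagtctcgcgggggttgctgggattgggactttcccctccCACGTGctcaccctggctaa

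Genes known as targets of p53 were lower more often than higher, but 0 of 18 tested members of the list were called by limma. A negative difference was seen in 15 of the 18 (44.3% of all tested genes were negative), and 3 had an unadjusted p under 0.05, all lower (2.02% of all tested genes were lower at that threshold). The median log2 difference was -0.33, with -0.64 for 2i-O48 and -0.051 for 2i-O48-TKO, and in the switched cultures it was 0.20, with 10 positive and 8 negative members there (46.7% of all tested genes were positive). The Pmaip1 gene, which encodes the death-promoting protein Noxa, was at 21.9, 20.1 and 24.4 FPKM in 2i-14 and at 2.24 and 6.65 FPKM in 2i-O48 and 2i-O48-TKO, without overlap (log2 difference -2.21, adjusted p = 0.12). Pmaip1 kept that order after the switch, with 30.2 FPKM in 2i-14 against 2.68 and 1.91 FPKM, and it passed the threshold where all 13 libraries shared the spread (adjusted p = 0.015) or the switched libraries were added (0.0098), against a range of 0.0098 to 0.44 over its 14 alternatives.

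Other members differed in size and direction. Plk2, a stress-induced kinase, was at 19.96, 9.05 and 8.56 FPKM in 2i-14 and at 3.38 and 3.16 FPKM in the DMR-deleted lines (log2 difference -1.57, adjusted p = 0.31), yet in the switched cultures it was higher in the DMR-deleted lines (3.92 and 4.27 FPKM against 2.40). Mdm2, the ligase that degrades p53, was at 64.7, 36.0 and 49.3 FPKM against 22.8 and 34.8 FPKM (log2 difference -0.77, adjusted p = 0.80). Bax, a pore-forming death effector, was at 575, 544 and 504 FPKM against 396 and 477 FPKM, lower without overlap and not called (log2 difference -0.31, adjusted p = 0.95), while in the switched cultures it was at 420.5 FPKM against 342 and 326 FPKM. Cdkn1a, the cell cycle inhibitor p21, had a log2 difference of 0.12, with 131 FPKM for 2i-O48 and 227 FPKM for 2i-O48-TKO on either side of the 147 to 168 FPKM of 2i-14. Ccng1, cyclin G1, was at 83.9, 47.4 and 63.3 FPKM against 30.8 and 57.2 FPKM, with overlap.

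**Figure D2:**
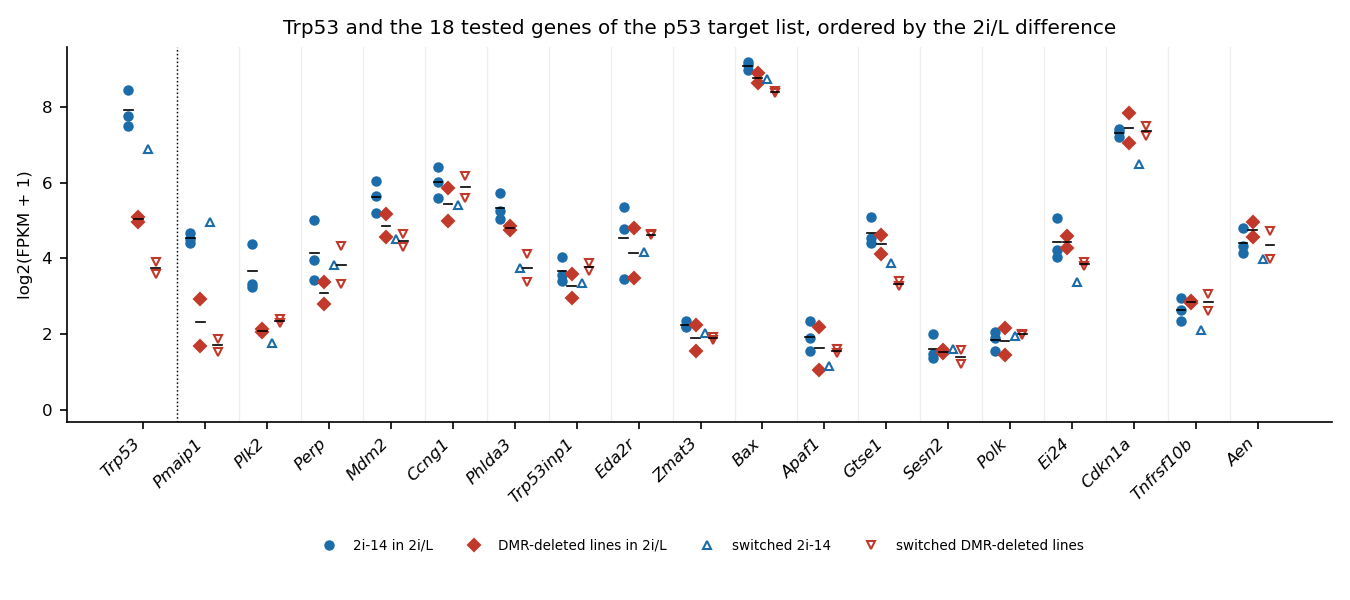
Log2(FPKM + 1) of Trp53 (left of the dotted line) and of the 18 tested p53 target genes, ordered by their 2i/L difference, with 1 symbol per library in 2i/L and in the switched cultures and bars at group means. Trp53 separates all 4 DMR-deleted libraries (11.1 to 33.2 FPKM) from the 4 plotted libraries of 2i-14 (118 to 345.5 FPKM), and Pmaip1 is the one target plotted whose 4 DMR-deleted values (1.91 to 6.65 FPKM) all lie below those of 2i-14 (20.1 to 30.2 FPKM).

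The other 3 genes that fell were Tmsb15b1, Cd59a and Guca1a. Tmsb15b1, a thymosin beta gene on the X chromosome whose product binds actin, was at 64.8, 54.5 and 76.2 FPKM in 2i-14 and at 5.21 and 3.24 FPKM in 2i-O48 and 2i-O48-TKO (log2 difference -3.68, SE 0.27, adjusted p = 0.0051). This is a 15.4-fold lower mean with no overlap, and switched cells gave 67.0 FPKM in 2i-14 against 3.72 and 4.58 FPKM. The neighbouring copy Tmsb15b2 was at 9.82 to 17.9 FPKM in 2i-14 and at 7.37 and 10.6 FPKM in the DMR-deleted lines, so the 2 copies did not differ alike, although fragments shared by such copies could have been divided between them by the authors' quantification. Tmsb15l, whose annotated span runs over both copies, was at 17.0, 18.6 and 38.6 FPKM in 2i-14 against 9.98 and 16.1 FPKM, without overlap. After the switch Tmsb15l was at 23.85 FPKM in 2i-14 against 33.2 FPKM for 2i-O48 and 22.75 FPKM for 2i-O48-TKO.

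Cd59a, an inhibitor of the complement membrane attack complex, was at 22.8, 18.4 and 19.0 FPKM in 2i-14 and at 1.19 and 1.39 FPKM in the DMR-deleted lines (log2 difference -3.20, SE 0.23, adjusted p = 0.0051). Its tandem copy Cd59b was at 3.90, 4.75 and 4.79 FPKM against 0.353 and 3.82 FPKM, which leaves 2i-O48-TKO close to 2i-14. Guca1a, an activator of the guanylate cyclase of photoreceptors, was at 4.07, 3.74 and 3.76 FPKM in 2i-14 and was listed at 0 in both DMR-deleted lines, before and after the switch (adjusted p = 0.017). Guca1b, the related gene next to it on chromosome 17, was at 1.21, 1.26 and 0.475 FPKM in 2i-14 and was also listed at 0 in all 4 DMR-deleted libraries, while both genes were above 0 in all 9 wild-type libraries.

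Beyond the called genes, the lower side was filled by smallest p from genes that were not called. Taf4a, a subunit of the general transcription factor TFIID, was at 2.23, 2.18 and 1.54 FPKM in 2i-14 and was listed at 0 in all 4 DMR-deleted libraries (adjusted p = 0.078). Gap43, a growth cone protein, was at 5.13 to 7.42 FPKM in 2i-14 and at 1.47 and 1.13 FPKM in the DMR-deleted lines (adjusted p = 0.094). S100a10, a partner of annexin A2, was at 426 to 600 FPKM in 2i-14 and at 203 and 239 FPKM in the DMR-deleted lines, a 2.29-fold lower mean (adjusted p = 0.12). Etohi1, Deb1, Aard and Ublcp1, a phosphatase of the proteasome, had log2 differences of -1.57, -1.19, -1.34 and -1.19, with adjusted p from 0.12 to 0.15. In none of the 8 genes of this kind, Pmaip1 included, did the groups overlap, which was one of the conditions for naming them.

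The largest rise was that of Tex13, a testis-expressed gene on the X chromosome. Tex13 (chrX:137342846-137347972, minus strand, mm9) had 0.0728 FPKM in 2i-14 at p18, 0.285 FPKM at p39 and 0.307 FPKM at p50, and 25.3 and 22.7 FPKM in 2i-O48 and 2i-O48-TKO. Its mean was 108 times higher in the DMR-deleted lines (log2 difference 4.36, SE 0.23, adjusted p = 0.0015). Switched cells gave 0.525 FPKM in 2i-14 against 26.8 and 23.0 FPKM, and the TSa2i/L libraries were at most 1.00 FPKM. Tex13 was past the threshold in 13 of its 14 alternatives, the exception being the fit with no filter. Its 3 tested neighbours within 250 kb had log2 differences from -0.26 to 0.72, with 0 of 3 at an unadjusted p under 0.05.

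The promoter of Tex13 is given as that of the gene with the largest change of either sign. RefSeq names this gene Tex13b. The sequence on GRCm38.p6, chrX:140813434-140813683, minus strand, is the 250 bases before the start, and capitals mark its 11 CpG dinucleotides, the sites at which DNA can be methylated. Counted over 300 bases, the promoters of the 11 called genes with an entry held from 1 to 17 CpG, with a median of 7 over all promoters in the table.
Tex13: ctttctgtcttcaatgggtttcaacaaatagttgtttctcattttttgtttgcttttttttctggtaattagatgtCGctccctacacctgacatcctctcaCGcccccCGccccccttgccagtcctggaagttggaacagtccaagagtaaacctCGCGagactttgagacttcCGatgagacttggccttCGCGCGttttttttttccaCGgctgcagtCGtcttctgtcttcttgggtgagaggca

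The next largest rises were autosomal. Kng1, which encodes kininogen, the precursor of bradykinin, was at 0.248, 1.13 and 1.22 FPKM in 2i-14 and at 21.5 and 13.2 FPKM in 2i-O48 and 2i-O48-TKO (log2 difference 3.30, SE 0.35, adjusted p = 0.030). Its paralog Kng2, on the same stretch of chromosome 16, was at 17.4, 11.2 and 5.54 FPKM against 64.4 and 50.3 FPKM (log2 difference 2.35, adjusted p = 0.14). Both kininogen genes were thus higher in both lines, and after the switch they were at 1.99 and 0.622 FPKM in 2i-14 against at least 8.04 and 21.2 FPKM in the DMR-deleted lines. The 9 tested neighbours of Kng1 within 250 kb had log2 differences from -1.56 to 2.35, with a median of 0.305. Of these, 3 had an unadjusted p under 0.05, all higher (3.78% of all tested genes): Kng2, Ahsg (1.00) and Crygs (0.86). Rbm45, which encodes an RNA-binding protein, was at 2.03, 1.89 and 1.16 FPKM in 2i-14 and at 32.3 and 19.2 FPKM in the DMR-deleted lines (log2 difference 3.28, SE 0.30, adjusted p = 0.017), while its 2 tested neighbours within 250 kb had log2 differences of -1.12 and -0.26.

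Rpl39l, a paralog of a ribosomal protein gene that is used mainly in the testis, was the most abundant gene that rose, from 79.5, 67.7 and 85.2 FPKM in 2i-14 to 277 and 241 FPKM in the DMR-deleted lines (log2 difference 1.73, SE 0.19, adjusted p = 0.032). Rpl39l was much lower after the switch, at 3.99 FPKM in 2i-14 and at 13.6 and 38.97 FPKM in the DMR-deleted lines, with the order kept. AV320801 and Gm5128, neighbours on the X chromosome, were at most 1.63 and 0.493 FPKM in 2i-14 and at least 8.52 and 4.32 FPKM in the DMR-deleted lines (adjusted p = 0.036 and 0.032). Both genes reached 1 FPKM in fewer than 2 libraries of 2i-14 and passed the filter on low values through the DMR-deleted libraries. After the switch AV320801 was at 0.237 FPKM in 2i-14, with 0.153 FPKM for 2i-O48 and 1.70 FPKM for 2i-O48-TKO, so that only 1 of the lines stayed above 2i-14. The genes closest to the threshold that were not called were Cox7b2, a cytochrome c oxidase subunit of the testis, at 5.11 to 6.57 FPKM against 23.2 and 32.7 FPKM (adjusted p = 0.053), and Lyrm7, an assembly factor of respiratory complex III, at 2.41 to 3.49 FPKM against 13.2 and 14.2 FPKM (adjusted p = 0.061).

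**Figure D3:**
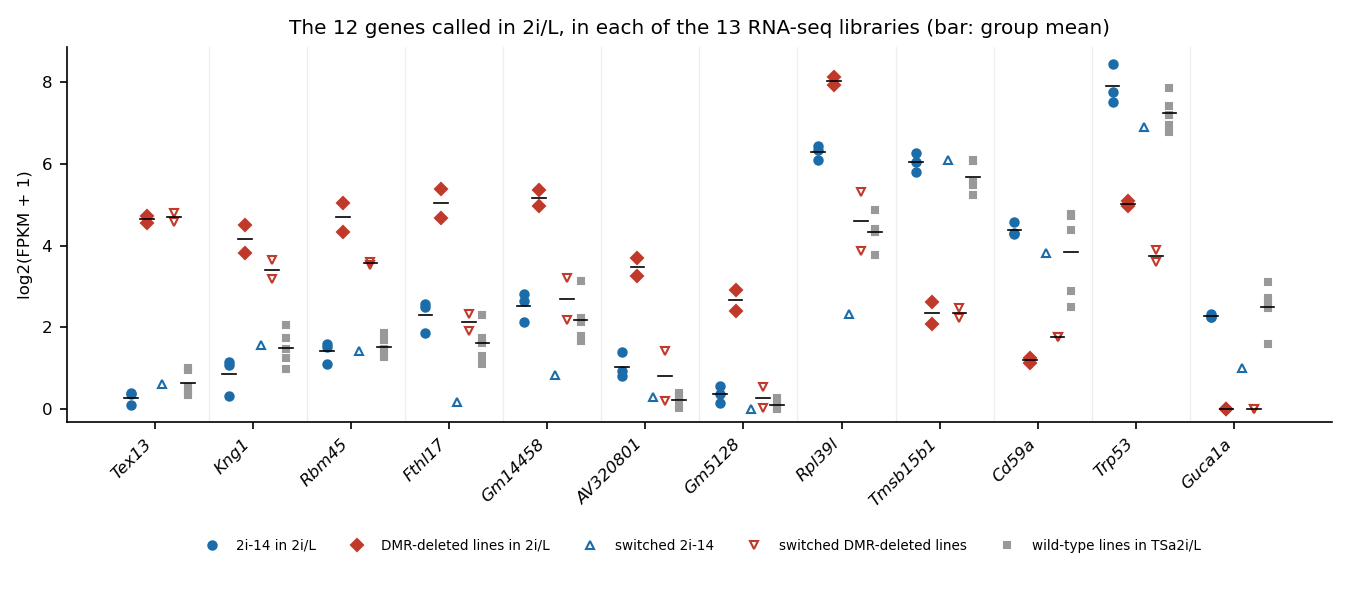
Log2(FPKM + 1) of the 12 called genes in each of the 13 RNA-seq libraries, with 1 symbol per library and bars at group means. In 2i/L the 2 DMR-deleted libraries lie outside the range of the 3 libraries of 2i-14 for each gene, and the separation of Tex13, Tmsb15b1, Cd59a and Trp53 is also seen against the switched and TSa2i/L libraries of the wild type.

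Of the 12 called genes 6 lie on the X chromosome, which carries 431 of the tested genes. Tex13, AV320801 and Gm5128 among them passed the filter on low values through the DMR-deleted libraries. These 6 include Fthl17 and Gm14458, members of a cluster of ferritin heavy chain-like genes that are expressed from the paternal X in early female embryos. All 6 members of the cluster in the files (chrX:8539260-8640948) were tested, and all 6 were higher in the DMR-deleted lines with an unadjusted p under 0.05 (3.78% of all tested genes), 2 of them called. Their summed level was 36.4 FPKM in 2i-14 at p18, 49.5 FPKM at p39 and 94.7 FPKM at p50, and 378 and 338 FPKM in 2i-O48 and 2i-O48-TKO. The lowest sum of the DMR-deleted lines was thus well above the highest of 2i-14, and log2 differences ran from 2.09 for Gm5635 to 2.84 for Gm5634, with a median of 2.68.

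Fthl17 was at 2.66, 4.94 and 4.67 FPKM in 2i-14 and at 41.0 and 24.7 FPKM in the DMR-deleted lines (log2 difference 2.72, SE 0.33, adjusted p = 0.045). Gm14458 was at 3.41, 5.27 and 6.06 FPKM against 39.9 and 30.4 FPKM (log2 difference 2.63, SE 0.28, adjusted p = 0.032). Gm5634, the largest difference of the cluster, was at 6.06, 7.27 and 15.6 FPKM against 73.7 and 66.0 FPKM and was not called (adjusted p = 0.061). Fthl17 was called in 3 of its 14 alternatives, so its call is the least stable of the 12 together with that of AV320801. In the switched cultures the cluster summed to 27.9 FPKM in 2i-14 and to 136 and 165 FPKM in 2i-O48 and 2i-O48-TKO, and over the TSa2i/L libraries it ran from 31.2 to 206 FPKM, so wild-type cells in that medium reached the level of the switched DMR-deleted cells.

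The 6 members are near-identical copies, so the division of fragments between them is uncertain, and the summed level is the safer value. Windows of 100 bases around TCCTATAAA, a TATA-box-like motif that each of the 6 promoters holds and 0.32% of all promoters in the table hold on either strand, show how alike the copies are. They are from RefSeq on GRCm38.p6, with capitals at bases that differ from Gm5634: Gm5634 at chrX:8962980-8963079, Gm14511 at chrX:8976564-8976663 and Gm14458 at chrX:8986745-8986844 on the minus strand, and Fthl17 at chrX:9033389-9033488, Gm14499 at chrX:9043477-9043576 and Gm5635 at chrX:9062926-9063025 on the plus strand. RefSeq names them Fthl17b, Fthl17c, Fthl17d, Fthl17e, Fthl17-ps1 and Fthl17f in this order. Pairwise identity over the window was 96% to 100%, and the called genes Fthl17 and Gm14458 are identical there.
Gm5634: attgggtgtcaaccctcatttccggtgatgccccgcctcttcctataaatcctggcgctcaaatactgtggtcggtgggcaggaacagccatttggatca
Gm14458: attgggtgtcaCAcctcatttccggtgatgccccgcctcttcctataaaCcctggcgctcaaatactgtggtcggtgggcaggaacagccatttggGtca
Gm5635: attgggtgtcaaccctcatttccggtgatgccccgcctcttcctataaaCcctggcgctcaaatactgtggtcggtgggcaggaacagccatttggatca
Gm14511 and Gm14499 have the window of Gm5634, and Fthl17 has that of Gm14458.

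The Rhox cluster, homeobox genes of the X chromosome that act in the germline and placenta, was higher over most of its length. Of 30 Rhox genes in the files 20 were tested, all 20 had a positive difference (55.7% of all tested genes), and 18 had an unadjusted p under 0.05 (3.78% of all tested genes, counting higher ones), while 0 were called by limma. The filter on low values can be met by the 2 DMR-deleted libraries alone. Rhox2d, Rhox2f, Rhox2g, Rhox2h, Rhox4f and Rhox4g reached 1 FPKM in fewer than 2 libraries of 2i-14 and entered through that group. The Fthl17, Rhox and Xlr families were also chosen after their values were seen, so nothing is read from such counts of members. The median log2 difference of the 20 tested Rhox genes was 1.42. The summed level of the cluster was 52, 99.3 and 95.3 FPKM in 2i-14 and 445 and 226 FPKM in 2i-O48 and 2i-O48-TKO, without overlap. Rhox6, the most abundant member, was at 5.86, 26.3 and 26.7 FPKM against 200.1 and 55.5 FPKM (log2 difference 2.62, adjusted p = 0.44), and Rhox4g was at 0.889, 0.872 and 1.19 FPKM against 5.09 and 5.35 FPKM (log2 difference 1.65, adjusted p = 0.061).

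After the switch the median over the same 20 Rhox genes was 0 for 2i-O48 and 0.79 for 2i-O48-TKO, each against switched 2i-14. No Rhox2 or Rhox4 gene was above 0.461 FPKM in switched 2i-14 or switched 2i-O48, so this median is of genes near 0. The summed level of the cluster was 38.5 FPKM in switched 2i-14 against 75.7 and 112 FPKM in the switched DMR-deleted lines, and Rhox9 was at 9.42 FPKM against 29.4 and 37.6 FPKM. The Xlr genes, X-linked genes related to a meiotic chromosome protein, had 9 tested members, all 9 positive, 5 with an unadjusted p under 0.05, 0 called and a median of 1.31, beside the same shares of all tested genes. The Xlr sums were 534, 331 and 779 FPKM in 2i-14 against 974 and 1030 FPKM in the DMR-deleted lines. Copies of the Rhox2, Rhox4 and Xlr genes are also close relatives, and the same caution on shared fragments applies to their single values. Over the X chromosome as a whole, the 431 tested genes had a median log2 difference of 0.083, or 0.048 without the 3 families, beside autosomal medians from -0.040 on chromosome 18 to 0.058 on chromosome 11. Higher values with an unadjusted p under 0.05 were found for 16.01% of the X-linked genes and for 0.965% to 6.13% of the genes of single autosomes. Without the 3 families the share on the X chromosome was 10.1% (40 of 396 genes). Both DMR-deleted libraries lay above 2i-14 for 22.7% of the X-linked genes, beside 6.76% to 15.1% on the autosomes. All of these X-linked shares count Tex13, Gm5128 and AV320801. These genes reached 1 FPKM in fewer than 2 libraries of 2i-14 and passed the filter through the DMR-deleted libraries. For such genes the filter favours a positive sign, so the shares are given as a description.

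**Figure D4:**
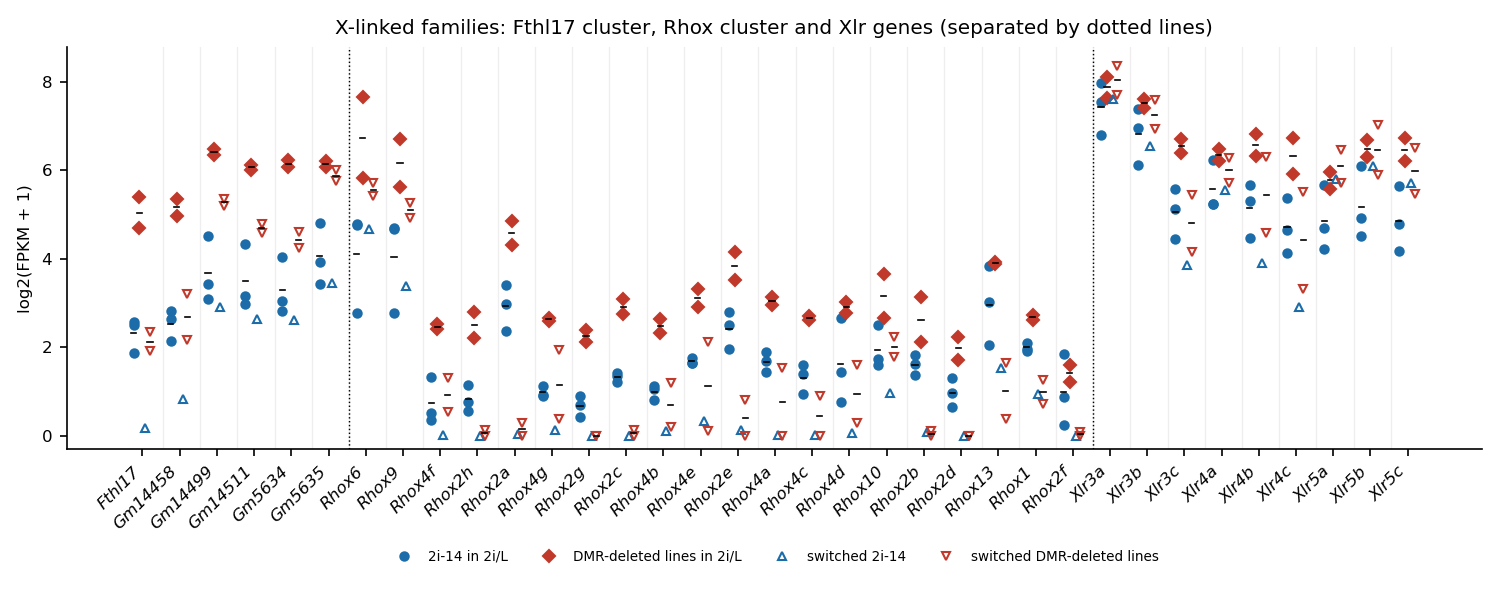
Log2(FPKM + 1) of the tested members of the Fthl17 cluster, the Rhox cluster and the Xlr genes, with 1 symbol per library in 2i/L and in the switched cultures and bars at group means. All 6 Fthl17 members lie higher in both DMR-deleted lines, in the switched cultures as well, whereas the Rhox2 and Rhox4 genes of switched 2i-14 and switched 2i-O48 are close to 0.

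Genes of the germline and of meiosis as a list showed the same tendency. Of 31 tested members, 1 was called, Tex13, and 31 had a positive log2 difference, where 55.7% of all tested genes did. Tex13 and Asz1 reached 1 FPKM in fewer than 2 libraries of 2i-14 and passed the filter through the DMR-deleted libraries. For such members the filter favours a positive sign, so the counts of this list are given as a description. An unadjusted p under 0.05 was found for 17 of the 31, all higher (3.78% of all tested genes), and for 18 both DMR-deleted libraries lay above 2i-14 (11.9% of all tested genes). The median log2 difference was 0.95, with 0.92 for 2i-O48 and 0.98 for 2i-O48-TKO, and in the switched cultures it was 0.52. The list includes 3 Rhox and 4 Xlr genes described above. Without 2i-14 p39, the library with the high fibroblast markers, 28 of the 31 differences were positive and the median was 0.89.

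Among the autosomal members, Asz1, a protein of the piRNA pathway, was at 0.414, 0.915 and 1.66 FPKM in 2i-14 and at 9.80 and 5.80 FPKM in 2i-O48 and 2i-O48-TKO (log2 difference 2.15, adjusted p = 0.11). Fkbp6 was at 19.5, 18.2 and 26.2 FPKM against 81.3 and 64.0 FPKM (log2 difference 1.73, adjusted p = 0.084). Rpl10l, a ribosomal protein retrogene of the testis, was at 106, 90.2 and 36.9 FPKM against 471 and 227 FPKM (log2 difference 2.19, adjusted p = 0.26). These genes did not overlap between the groups, while the most abundant member, Xlr3a, was at 111 to 249 FPKM in 2i-14 and at 199 and 273 FPKM in the DMR-deleted lines. Genes of the list with almost no difference were Ddx4, a germ cell helicase (log2 difference 0.013), and Stra8, a gene of meiotic entry (0.056), both smaller than the shift of -0.060 that median centring would give to every gene. Sycp1, of the synaptonemal complex, was at 1.14 to 2.08 FPKM in 2i-14 and at 5.02 and 5.44 FPKM in the DMR-deleted lines, and it kept its order after the switch (1.09 FPKM against 4.02 and 5.08 FPKM), whereas Fkbp6 after the switch was at 9.87 FPKM in 2i-14, with 10.1 FPKM for 2i-O48 and 66.6 FPKM for 2i-O48-TKO.

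Position along the chromosomes was then read with a running median over 9 neighbouring tested genes, and 7 runs passed 0.8 in size in the same direction in both lines. Of these, 5 lay on the X chromosome, 1 on chromosome 3 around the S100a genes (lower), and 1 on chromosome 4 (higher). The run on chromosome 4 was extended by hand to Tmem53 on one side and Foxj3 on the other, chr4:116924556-119301724 on mm9, 2.38 Mb with 25 tested genes. It was chosen after these values were seen and is given as a description, with no test.

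Over the 25 genes the median log2 difference was 0.81, a 1.76-fold higher level, with a range from 0.17 to 1.62. The median was 0.98 for 2i-O48 and 0.80 for 2i-O48-TKO, and 23 of the 25 genes were positive in each line. The 20 tested genes before the block had a median of -0.058 and the 20 after it 0.025. None of the 25 genes was called by limma, 17 had an unadjusted p under 0.05, and for 19 the groups did not overlap, beside 3.78% and 11.9% of all tested genes that were higher by the same measures. The block was chosen on these values, so nothing is read from these counts. In the switched cultures, which did not enter the running median, 24 of the 25 genes were above switched 2i-14 for 2i-O48 and 24 for 2i-O48-TKO, where 44.5% and 48.2% of all tested genes were, and the medians were 0.80 and 0.72. These are further libraries of the same 2 lines. Within the wild type, the median of the block deviated by -0.18 to 0.21 between libraries of 2i-14 and by -0.19 to 0.17 between those in TSa2i/L.

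The block holds genes of unlike function. Ebna1bp2, which processes ribosomal RNA, was at 109, 116 and 116 FPKM in 2i-14 and at 307 and 228 FPKM in 2i-O48 and 2i-O48-TKO, and in the switched cultures it was at 134 FPKM against 228 and 223 FPKM. Slc2a1, the glucose transporter GLUT1, was at 142, 110 and 83.7 FPKM against 254 and 451 FPKM, the largest difference of the block. Atp6v0b, a subunit of the proton pump of lysosomes, was at 233, 281 and 383 FPKM against 557 and 604 FPKM, and Med8, a Mediator subunit, was at 72.9, 59.4 and 62.3 FPKM against 150 and 114 FPKM. Each of these 4 genes was without overlap between the groups in 2i/L, and in 7 genes of the block, Atp6v0b, Med8 and Ebna1bp2 among them, all 4 DMR-deleted libraries lay above all 9 wild-type libraries (0.541% of all tested genes). The 2i/L libraries on which the block was chosen are part of this count, so nothing is read from it. The copy number of the region was not measured by these libraries.

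**Figure D5:**
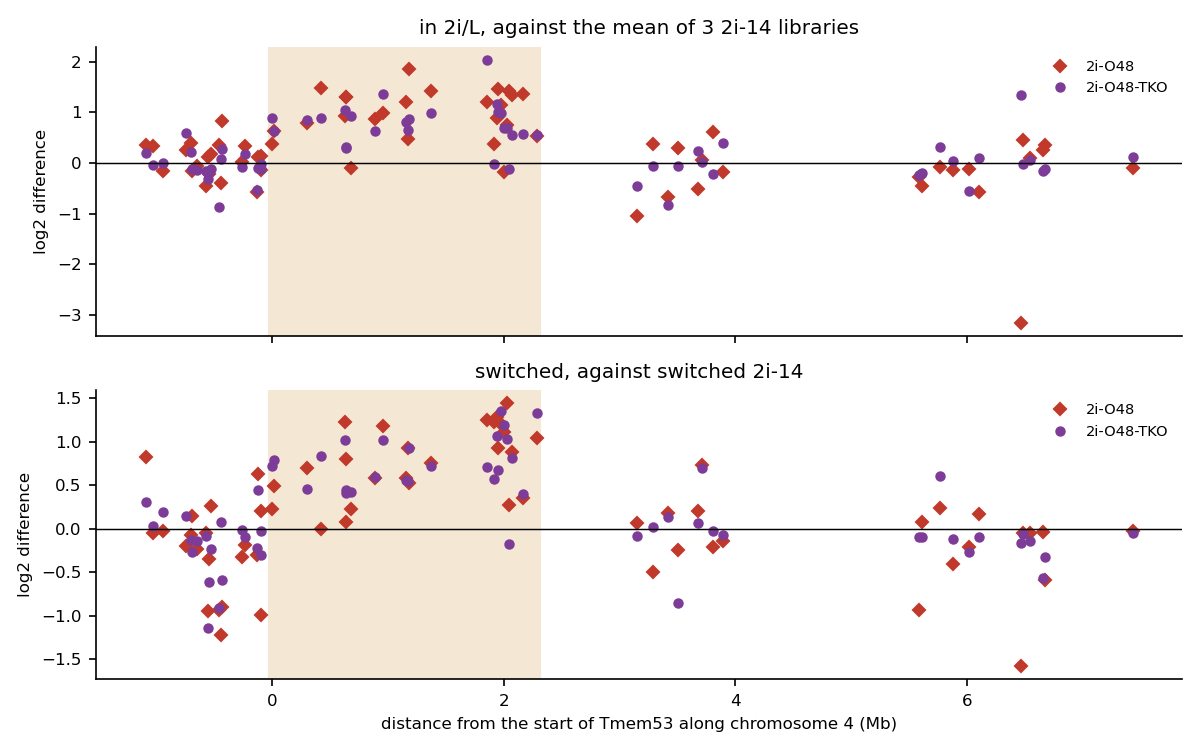
Log2 difference of each tested gene along chromosome 4 in the block from Tmem53 to Foxj3 (shaded) and in 20 tested genes on each side, for 2i-O48 and 2i-O48-TKO in 2i/L against the mean of 2i-14 (top) and after the switch against switched 2i-14 (bottom), with position in Mb from the start of Tmem53. The medians inside the block are 0.98 and 0.80 in 2i/L and 0.80 and 0.72 after the switch, and genes outside it scatter around 0.

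No gene of the naive stem cell program passed the adjusted threshold. Of 26 tested genes of naive pluripotency 0 were called by limma, 2 had an unadjusted p under 0.05, both higher (3.78% of all tested genes), and the median log2 difference was -0.062, with 9 positive. Without 2i-14 p39 the median was 0.019, with 14 positive. The 2 were Tcl1, a coactivator of the kinase Akt, at 249, 171 and 201 FPKM in 2i-14 and at 310 and 335 FPKM in the DMR-deleted lines (adjusted p = 0.56), and Utf1, a chromatin protein of stem cells, at 73.3 to 95.1 FPKM against 189 and 131 FPKM. Nanog, a core transcription factor, was at 310, 334 and 248 FPKM in 2i-14, with 467 FPKM for 2i-O48 and 232 FPKM for 2i-O48-TKO, so the DMR-deleted lines lay on either side of the wild type. Dppa5a, an RNA-binding protein of stem cells and the most abundant member, had a log2 difference of -0.17, and Tdh, a threonine dehydrogenase, had -0.18. Dppa3, which protects methylation in the early embryo, varied within the wild type, at 60.8, 283 and 327.5 FPKM against 425 and 259.5 FPKM.

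Of genes that write or erase DNA methylation 14 were tested and 0 were called. At an unadjusted p of 0.05, 1 was higher and 1 lower (3.78% and 2.02% of all tested genes). The median was -0.082, or -0.015 without p39. The maintenance methyltransferase Dnmt1 was at 10.5 to 11.6 FPKM in 2i-14 and at 8.42 and 12.5 FPKM in the DMR-deleted lines, and Dnmt3l, the cofactor of de novo methylation, was at 64.1, 27.7 and 27.1 FPKM against 49.7 and 60.97 FPKM. Gadd45b was at 26.7 to 31.6 FPKM against 31.1 and 64.2 FPKM, and the log2 differences of Hells and Uhrf1, which assist maintenance methylation, were 0.19 and -0.16. Of 22 tested genes that protect imprints, 0 were called and 1 was higher at an unadjusted p under 0.05 (3.78% of all tested genes). Their median was 0.041, or 0.12 without p39. The log2 differences were -0.060 for the heterochromatin protein Cbx3, 0.19 for Naa10 and 0.12 for Trim28, the corepressor that works with ZFP57. The 28 tested cell cycle genes had 0 called, 0 at an unadjusted p of 0.05 and a median of 0.022, or 0.045 without p39. The most abundant were Cdk4 (-0.12), Ccnb2 (0.0056), Pcna (-0.079) and Ccnd3 (0.19). The 8 steadily expressed genes used as a check, among them Actb, Ppia, Eef1a1 and Hprt, had a median of -0.11 with 0 at an unadjusted p of 0.05.

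Lists of neighbouring cell states and signals held single members that differed in 2i/L, none of them called by limma. Of 10 tested genes of formative and primed pluripotency, the stage after the naive one, 1 was higher and 2 lower at an unadjusted p under 0.05 (3.78% and 2.02% of all tested genes), and the median log2 difference was -0.15, or -0.013 without p39. The higher one was Otx2, a transcription factor of that stage, at 0.2145, 1.55 and 1.72 FPKM in 2i-14 and at 2.17 and 7.04 FPKM in the DMR-deleted lines. The lower ones were the cadherin Cdh2 and Spry2, an inhibitor of ERK signalling, which was at 57.2, 32.0 and 50.3 FPKM against 25.05 and 21.1 FPKM without overlap, and after the switch at 72.7 FPKM against 51.99 and 33.7 FPKM. Etv5, Tcf15 and Tead2 of the same list had log2 differences of -0.28, 0.32 and -0.17. The 11 tested genes of MEK-ERK feedback had a median of -0.088, with Spry2 alone under an unadjusted p of 0.05, and the lines differed at Ier3, at 11.8 FPKM for 2i-O48 and 79.8 FPKM for 2i-O48-TKO beside 12.7 to 32.7 FPKM in 2i-14. Ccnd1, cyclin D1, was at 15.8, 7.40 and 2.43 FPKM against 18.8 and 9.52 FPKM.

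Only 4 of 19 genes of the primitive endoderm, an extraembryonic lineage of the blastocyst, passed the filter. Sparc, a matrix protein, was at 222, 219 and 148.5 FPKM in 2i-14 against 102.5 and 97.95 FPKM, without overlap (log2 difference -0.94, adjusted p = 0.33), and after the switch at 54 FPKM against 46.9 and 48.2 FPKM. The laminins Lamc1 and Lamb1 had log2 differences of -0.46 and -0.52, and Amn had 0.76. Of the 6 tested Notch genes, listed because Dlk1 is an atypical Notch ligand, 0 had an unadjusted p under 0.05. Their median was -0.039, or -0.080 without p39, with Hes1, a target, at 0.18, the factor Rbpj at -0.20, Numb at -0.16 and the ligand Jag1 at -0.0027. Of 12 genes of thyroid hormone metabolism, the pathway of Dio3, 2 were tested: Klf9 had a log2 difference of 0.025, and Crym, a thyroid hormone binding protein, was at 1.01, 1.79 and 0.871 FPKM against 3.75 and 2.95 FPKM (log2 difference 0.99, adjusted p = 0.39). The 16 tested Pramel, Xlr and other multicopy genes had 5 higher at an unadjusted p under 0.05 (3.78% of all tested genes) and a median of 0.71, with 0.44 for Xlr3a, 0.69 for Xlr3b, 0.78 for Xlr4a and 1.42 for Xlr4b. Tex19.1 of the germline list had 0.24. Of 6 Y-linked genes 0 passed the filter.

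The direction of the 12 called genes was read last in the switched cultures, libraries that took no part in the fit. All 12 (100%) had the same sign there, where 56.2% of all tested genes and 79.1% of the 589 genes with an unadjusted p under 0.05 did. For 11 of the 12 (91.7%) both switched DMR-deleted libraries lay beyond switched 2i-14 on the side seen in 2i/L, and 41.4% of all tested genes did so. AV320801 was the exception. Gm5128 is counted among the 11 on values of 0.0136 FPKM for 2i-O48, less than 3 fragments would give, and 0.466 FPKM for 2i-O48-TKO, with switched 2i-14 listed at 0. The wild-type arm is a single library there, so the difference has no replicate check. Over all 13 libraries, 118 genes (1.16%) had the 4 DMR-deleted libraries on one side of all 9 wild-type libraries, 55 above (0.541%) and 63 below (0.62%). Among the called genes these were Tex13, Kng1 and Rbm45 above and Tmsb15b1, Cd59a, Trp53 and Guca1a below.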

How the data were processed

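RNA-seq was made from haploid mouse AG-haESCs. Each deposited table holds the FPKM values of 1 library, which the authors obtained with Cufflinks after aligning reads to mm9 by TopHat; the submitters' processing notes name TopHat2 2.0.11, Bowtie2 2.2.2 and Cufflinks 2.2.1. The gene annotation and any scaling between libraries are not given in the sources used here. A count model was not applied, since FPKM is a scaled unit. The methylation and chromatin samples were not analysed here.

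Each library listed 24525 rows with 24028 symbols, and rows of a symbol were summed. Positions come from GENCODE vM1 on mm9, which matched 20642 symbols to a single gene; promoter sequences are from RefSeq on GRCm38.p6. log2(FPKM + 1) was fitted with limma 3.58.1 (R 4.3.3, intensity trend, Benjamini-Hochberg at 0.05) for genes with at least 1 FPKM in at least 2 of 5 libraries, and tested on simulated data. Single genes also had an exact two-sided permutation test over 10 splits. Depth was estimated from the smallest values of 3737 genes with transcripts above 1500 bases, and 3 fragments were taken as a floor, which covers counting error only. On a transcript of 1 kb the floor was 0.151 to 0.232 FPKM over the 13 libraries. Other steps used Python 3.11.15, numpy 2.4.6, pandas 2.3.3 and matplotlib 3.10.9.

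The members and gene lists were chosen with earlier results of these data known. The text names genes of both imprinted regions, but not all of them. Th, Tnni2, Tnnt3, Lsp1, Begain, Slc25a47, Dio3os and Ppp2r5c were among those left out, and none of these was called. Also named are the 12 largest changes in each direction among called genes without overlap between groups, filled by smallest p where fewer were called. Of each other list up to 4 tested members are named, the called ones first and then the most abundant. Genes outside this rule, among them Kng2, Guca1b, Cd59b, Tmsb15b2, Wrap53, Plk2, Asz1, Sycp1, Nnat, Sfmbt2, Tcl1, Utf1, Otx2, Cdh2, Dnmt1, Irgm1, Plac1, Gm6763, the X-linked families and the chromosome 4 block, were chosen after their values were seen. Alternatives covered the pseudocount, filter, scaling, trend, repeated symbols, size of change, further libraries and leaving out each library.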

Additional observations from a re-analysis of the deposited data

Results flagged for a closer look

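Phlda2, an imprinted growth regulator of the placenta, differed in direction between the media. In 2i/L both DMR-deleted libraries (6.77 FPKM for 2i-O48 and 11.7 FPKM for 2i-O48-TKO) lay below the 3 libraries of 2i-14 (11.99 to 26.3 FPKM), and in the switched cultures both (96.4 and 86.9 FPKM) lay above 2i-14 (82.2 FPKM). The log2 difference was -0.91 in 2i/L and 0.15 after the switch. The interaction of line and medium, 1.06 on the log2 scale, did not pass (limma, adjusted p = 1.0), and over all tested genes 0 passed by limma, with 261 at an unadjusted p of 0.05. The gap between 2i-O48-TKO and 2i-14 p50 was small beside the spread of 2i-14.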

How the results depend on the processing

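The design sets 2 libraries of related lines against 3 passages of 1 line, so genotype and line cannot be told apart, and most differences of list genes do not pass the adjusted threshold. Depth was estimated, not given, and limits H19, part of the Igf2 values and the DMR-deleted values of Rian and Mirg, which lay near or under 3 fragments. Median centring moved the differences of all genes by -0.060. The 12 called genes became 39 when all 13 libraries shared the spread (11 of the 12 among them), 45 with the switched libraries added (10 of the 12) and 0 with no filter on low FPKM, where 1014 genes had an unadjusted p under 0.05. Other settings gave 8 to 12, with 8 higher and 4 lower becoming 4 and 4 at a pseudocount of 0.1, 5 and 4 with the highest row of each symbol, and 6 and 4 under median centring, quantile normalization or no trend. Leaving out 1 library gave 2 to 20: 5 without 2i-O48-TKO, 2 without 2i-O48, 7 without 2i-14 p18, 15 without p39 (2 higher and 13 lower) and 20 without p50. Tex13 and Tmsb15b1 stayed called in each of these 5 fits, and Cd59a and Rbm45 in 4. Kng1, Guca1a and Trp53 stayed called in 2, AV320801, Gm14458 and Rpl39l in 1, and Fthl17 and Gm5128 in none. The fits without 2i-O48-TKO or without 2i-O48 leave 1 library in the DMR-deleted group. List genes called went from 1 to 5 when all libraries shared the spread (Asz1, Nnat, Pmaip1, Pramel3 and Tex13), to 4 with switched libraries added (Meg3, Pmaip1, Sycp1 and Tex13), to 0 with no filter, and from 1 to 5 when single libraries were left out, where the 5 came without p39 (Gm5662, Gm6763, Gm8300, Tex13 and Zscan4d). The median of the X chromosome, 0.083, was 0.023 under median centring and 0.067 to 0.12 when single libraries were left out. The causes were not tested. All 12 called genes kept their direction after the switch under median centring and at a pseudocount of 0.1.

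Differences that were not called changed sign in a few fits. With the switched libraries added, Dync1h1 was at 0.045 and Nanog at -0.0054. When single libraries were left out, log2 differences ran from -0.27 to 0.52 for Cdkn1a, from -0.26 to 0.25 for Dync1h1, from -0.028 to 0.48 for Mrpl23, from -0.35 to 0.66 for Nanog, from -0.38 to 0.63 for Trim28, from -0.30 to 0.67 for Wars, from -0.049 to 0.21 for Wdr25, from -0.30 to 0.65 for Wrap53 and from -3.87 to 0.12 for Zscan4f. No paired analysis was possible because the groups are different lines whose replicate numbers are only names.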

Other observations

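Genes of the 2-cell-like state, which is entered by a small share of stem cells and marked by the Zscan4 family, varied widely among the libraries of 2i-14. Zscan4f was at 61.3 FPKM in p18, 0.679 FPKM in p39 and 44.5 FPKM in p50, with 0.147 FPKM for 2i-O48 and 17.3 FPKM for 2i-O48-TKO. Gm6763 was at 33.5, 0.206 and 25.4 FPKM in 2i-14, at 0.126 FPKM in 2i-O48 and listed at 0 in 2i-O48-TKO. For both genes 2i-14 p39 was far below p18 and p50, and the Gm6763 values of p39 and of both DMR-deleted lines lay under the level of 3 fragments. Gm5662 and Zscan4c were also lowest in p39 among the libraries of 2i-14, at 0.899 and 0.278 FPKM. Of 16 tested genes of the list 15 had a negative difference (44.3% of all tested genes did) and 0 were called by limma, with 1 at an unadjusted p under 0.05 and a median log2 difference of -1.37. Without p39, 4 were called lower, where 0.128% of all tested genes were, and the median was -2.33. Gm6763 reached 1 FPKM only in 2i-14 p18 and p50 and passed the filter through them. For such members the filter favours a negative sign. The fit without p39 also drops the 2i-14 library in which the list was lowest, so nothing is read from these counts. In the switched cultures Zscan4f was at most 0.0831 FPKM in all 3 lines.

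Single epithelial and trophoblast genes differed between the DMR-deleted lines, in both directions. Krt18, a keratin, was at 68.7 FPKM for 2i-O48 and 10.97 FPKM for 2i-O48-TKO, against 5.03 to 23.2 FPKM in 2i-14, and the placental gene Plac1 was at 7.83 FPKM for 2i-O48 and 0.851 FPKM for 2i-O48-TKO, against 0.0863 to 1.32 FPKM. Krt8 went with Krt18, at 20.01 and 1.51 FPKM, Krt19 was at 1.54 and 12.1 FPKM, and Tfap2c was at 7.81 and 7.88 FPKM. Ascl2 went the other way from Krt18, with 2.01 FPKM for 2i-O48 and 4.29 FPKM for 2i-O48-TKO. Of 9 tested genes of the trophoblast list 0 were called, 0 had an unadjusted p under 0.05, and the median was 0.63, with medians of 0.15 for 2i-O48 and -0.018 for 2i-O48-TKO taken alone. Interferon-inducible genes had 20 tested members, 0 called, 1 higher and 2 lower at an unadjusted p of 0.05 (3.78% and 2.02% of all tested genes), and a median of -0.24, or -0.11 without 2i-14 p39. The higher one was Bst2, tetherin, at 36.1 to 38.2 FPKM against 53.4 and 59.9 FPKM. Of the abundant members, Ifitm1 had a log2 difference of -0.97 with overlap and B2m one of -0.37. The lower ones were Ifitm3, an antiviral membrane protein, at 1539 to 2105 FPKM in 2i-14 and at 742 and 1222 FPKM in the DMR-deleted lines, and Irgm1, at 1.28 to 4.82 FPKM against 0.396 and 0.616 FPKM.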
